A study of Mus musculus with 38 samples.

Results

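Genes of haemoglobin and of the red cell were followed in small vessels of the mouse lung during chronic hypoxia and the return to normal air. The set held 6 genes: the alpha globins Hba-a1 and Hba-a2, the beta globin Hbb-bt, the haem enzyme Alas2 and the membrane proteins Slc4a1 and Epb42. They were found by the gene symbol in the platform annotation, which gave 10 features on the array, of 45220 in all and 19087 named genes. The set was chosen with the low globin values of day 7 against hypoxia in these same data known. Values that include day 7 are therefore a description with no test, and only comparisons between the other conditions were tested. The fitted values of the other days still draw in part on arrays that hold a day 7 animal. Their tests are thus not free of the values on which the genes were chosen. A fit without those arrays is given below for Hba-a2 on day 3 only.

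The mice were C57BL/6J, 12 to 18 weeks old, and vessels with a diameter of 50 to 100 µm were cut by laser from lung sections of 10 µm. Animals were held in hypoxia with an inspired oxygen fraction of 0.10 for 21 days (23 animals) and then returned to normoxia for 1 day (11), 3 days (12), 7 days (12) or 14 days (10), while 8 animals stayed in normoxia at 0.21. The labels give no other agent or allele, and the groups after the return had all passed through hypoxia. Each of 38 arrays compared 2 animals, labelled with Cy3 and Cy5. The numbers of animals are counts of channels, taken as 1 animal each.

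Haemoglobin is a tetramer of alpha and beta globin chains, each of which holds a haem group that binds oxygen. In mammals, globin messages are made in erythroid precursors of the marrow and spleen, are still abundant in reticulocytes and are lost as these mature to red cells. Chronic hypoxia is known to raise red cell production through erythropoietin, and the return to normal oxygen is known to lower it. Small vessels cut from lung tissue can hold blood, so globin messages are often found in such material.

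The promoters of the genes are shown as background, since the globin genes and Alas2 are textbook targets of erythroid factors. Whether the motifs relate to the values on these arrays was not tested. The RefSeq table of build GRCm38.p6 held 5 of the 6 genes, each with 250 bases before and 50 after the start of transcription. The 4 that differ are given 5′ to 3′ on the strand of the gene. Capitals mark the GATA factor core GATAA, the CACCC box, the CCAAT box and the TATA core TATAA, on either strand.
Hba-a1, chr11:32283422-32283721, plus strand: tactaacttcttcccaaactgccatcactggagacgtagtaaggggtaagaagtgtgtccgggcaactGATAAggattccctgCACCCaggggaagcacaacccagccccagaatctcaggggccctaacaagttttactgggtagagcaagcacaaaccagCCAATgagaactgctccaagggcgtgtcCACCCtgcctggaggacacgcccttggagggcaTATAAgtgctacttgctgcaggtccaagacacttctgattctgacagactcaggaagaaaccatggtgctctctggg
Hbb-bt, chr7:103813874-103814173, minus strand: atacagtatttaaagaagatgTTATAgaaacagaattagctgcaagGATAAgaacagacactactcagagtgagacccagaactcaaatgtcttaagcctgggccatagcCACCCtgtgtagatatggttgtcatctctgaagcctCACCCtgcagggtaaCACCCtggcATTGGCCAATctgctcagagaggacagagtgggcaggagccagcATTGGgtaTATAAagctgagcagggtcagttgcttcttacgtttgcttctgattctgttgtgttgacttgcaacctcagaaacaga
Alas2, chrX:150547167-150547466, plus strand: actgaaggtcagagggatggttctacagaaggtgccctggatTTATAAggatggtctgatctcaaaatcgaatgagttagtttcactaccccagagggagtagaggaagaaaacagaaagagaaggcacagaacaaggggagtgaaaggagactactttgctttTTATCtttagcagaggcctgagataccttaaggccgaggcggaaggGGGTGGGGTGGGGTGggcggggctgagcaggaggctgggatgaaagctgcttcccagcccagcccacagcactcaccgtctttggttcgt
Epb42, chr2:121036828-121037127, minus strand: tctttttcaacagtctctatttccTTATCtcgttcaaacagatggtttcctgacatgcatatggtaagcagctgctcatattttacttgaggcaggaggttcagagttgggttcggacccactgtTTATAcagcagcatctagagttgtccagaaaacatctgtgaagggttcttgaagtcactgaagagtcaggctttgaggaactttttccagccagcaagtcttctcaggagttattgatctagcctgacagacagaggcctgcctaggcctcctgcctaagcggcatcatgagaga
The window of Hba-a2, at chr11:32296242-32296541 on the plus strand, was identical to that of Hba-a1 over 297 of 297 compared bases, shifted by 3 bases. The Hba-a1 and Hbb-bt windows held each of the 4 motifs, with TATAA at position -27 in Hba-a1 and -28 in Hbb-bt relative to the start. In Alas2 there were 3 CACCC boxes on the other strand, at -40, -35 and -30, and no CCAAT, and its TATAA matches on the 2 strands overlapped. Epb42 held 1 GATAA and 1 TATAA, and neither CACCC nor CCAAT. Among 32851 promoters of the same length, 25.4% held GATAA, 57.5% CACCC, 37.4% CCAAT and 24.9% TATAA, and 1.5% held each of them. A match describes the letters only.

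Values are log ratios of the 2 animals on an array, as the authors deposited them, with the dye effect removed and with the sign turned so that the first named condition stands over the second. Correlations of genes over the arrays were computed with the dye effect removed and the signs not turned. The base of the logarithm is not stated. As the largest value on any array was 1.12, base 10 was assumed, and folds are given for base 10 and base 2. The direction, Cy5 over Cy3, follows the usual convention and is likely rather than settled. With the other direction each sign below would turn. Array medians lay between -0.00306 and 0.00678, and arrays of one orientation correlated at r between -0.0274 and 0.546 over all features. A ratio holds no level, so that the presence of vessel markers could not be checked and levels of different genes are not compared.

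The 3 globin genes were lower on day 7 than in hypoxia on each array that compared the 2 directly. Hba-a2, which encodes an alpha chain, had log ratios of -0.444, -0.693, -0.300 and -0.548 on these 4 arrays, and Hba-a1, its near-identical copy, had -0.416, -0.661, -0.301 and -0.592. Hbb-bt, an adult beta chain, had -0.420, -0.718, -0.226 and -0.604. The same array was the least negative for each of the genes, and the same array the most negative. In the fit over all 38 arrays, day 7 stood below hypoxia by -0.431 ± 0.0707 (SE) for Hba-a2, which is 2.70-fold lower in base 10 and 1.35-fold in base 2. It was -0.412 ± 0.0721 for Hbb-bt (2.59-fold or 1.33-fold) and -0.366 ± 0.0652 for Hba-a1 (2.32-fold or 1.29-fold). By size these were ranks 1, 2 and 3 among 30653 entries, each a named gene or an unnamed feature, and the next entry in size stood at 0.236. Over all entries 0.0163% passed an adjusted p of 0.05 in this comparison, from which nothing is read for genes chosen on it. In dissected vessels, fewer cells with globin message and less message per cell cannot be told apart. Which cells held the message was not tested.

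Alas2, the first enzyme of haem synthesis in erythroid cells, followed the globins with a smaller and less even difference. It had -0.319, -0.445, -0.294 and 0.158 on the 4 arrays of day 7 against hypoxia, so that 1 array with a globin mean of -0.582 went the other way. The fitted value was -0.151 ± 0.0660, at rank 92 by size. The membrane genes showed no such difference. Slc4a1, the band 3 anion exchanger of the red cell membrane, had a fitted value of 0.0178 ± 0.0220 and direct values of 0.0971, -0.00938, -0.0440 and 0.0425. Epb42, which ties band 3 to the membrane skeleton, had 0.0128 ± 0.0158, with 2 of 4 direct arrays above 0. Its 2 features did not vary together over the 38 arrays (r = -0.149). Whether the messages of Slc4a1 and Epb42 were detected was not tested, as a ratio holds no level.

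**Figure D1:**
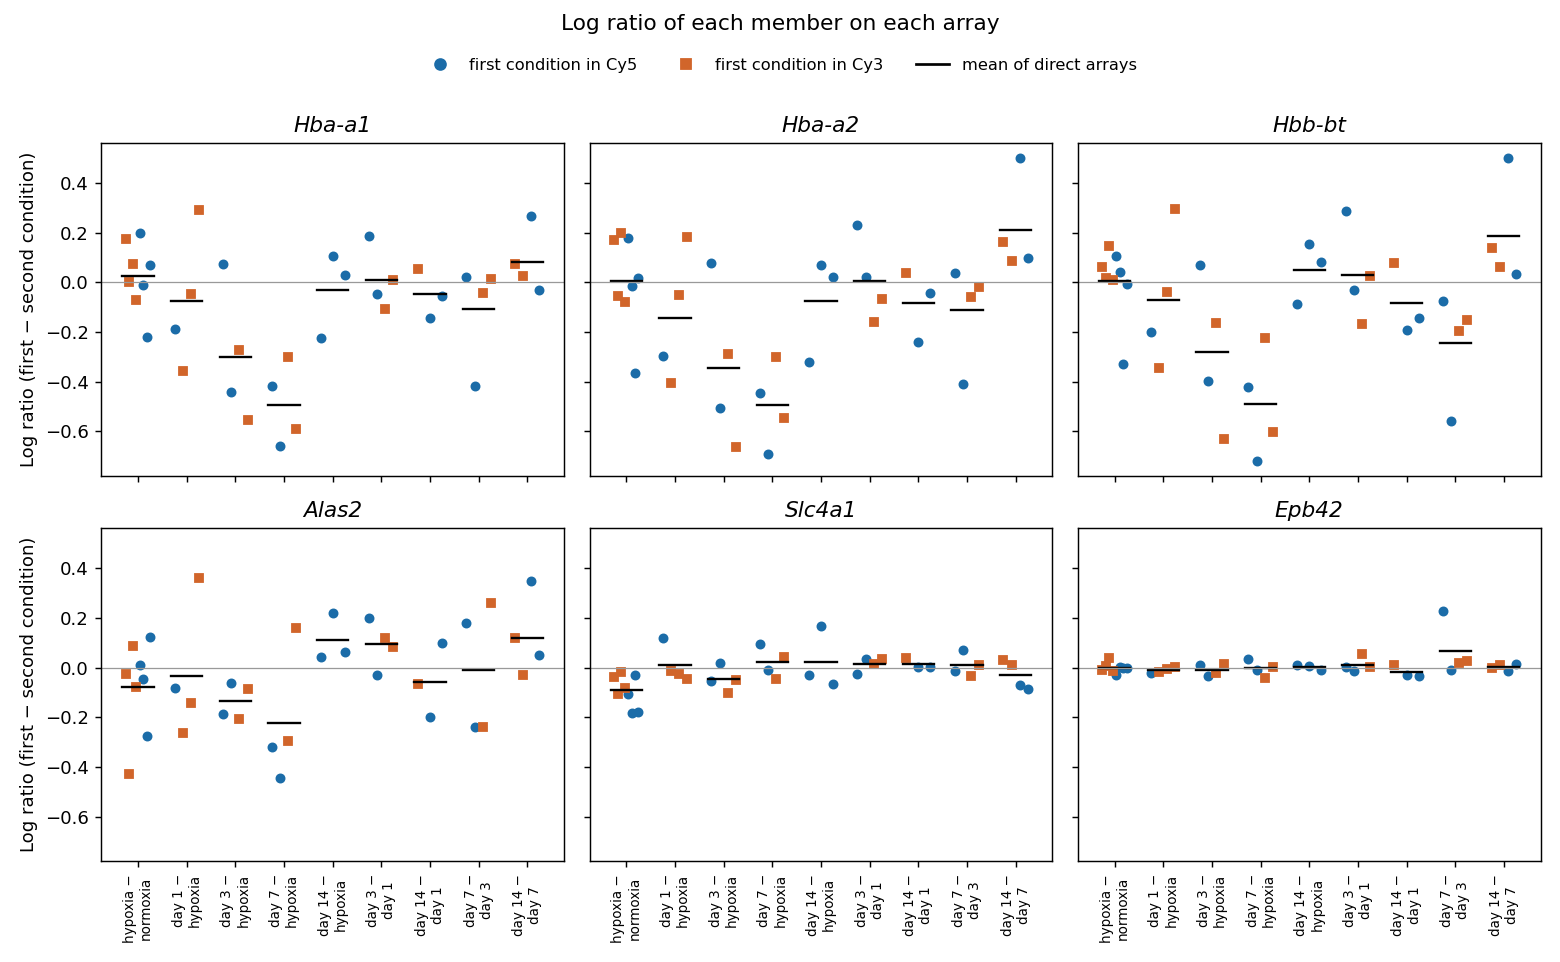
Log ratio of each of the 6 genes (vertical axis, base not stated, dye effect removed) on the 38 arrays, grouped by the 2 conditions compared, with the first condition over the second. Circles have the first condition in Cy5 and squares in Cy3, and bars are means over the direct arrays. On day 7 against hypoxia the globin genes lie below 0 on 4 of 4 arrays, while Slc4a1 and Epb42 stay close to 0.

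On day 7 against hypoxia the 4 features of Hbb-bt differed in size and not in sign. Fitted values were -0.511, -0.468, -0.429 and -0.242. On the direct arrays the weakest feature had -0.265, -0.456, -0.121 and -0.361, and the strongest -0.529, -0.845, -0.278 and -0.752. Over the 38 arrays the features of Hbb-bt correlated with each other at r between 0.840 and 0.994. Globin genes that are near-identical copies can bind each other's probes, so that the 2 alpha globins, and Hbb-bt and its beta globin neighbours, may not be separate measurements.

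The route through other arrays gave a smaller difference for day 7 in one case. Direct arrays put the mean of the 3 globin genes at -0.494 ± 0.0906 (SE, n = 4 arrays). The path through day 3, which adds day 7 against day 3 to day 3 against hypoxia, gave -0.464 ± 0.181 (8 arrays). The path through day 14 gave -0.179 ± 0.133 (7 arrays). The last path is less negative, and the 3 arrays of day 14 against hypoxia all had day 14 in Cy5. The fit combines these paths to -0.403.

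The globin genes were already lower on day 3 in the fit, without passing the test. On the 4 direct arrays of day 3 against hypoxia, Hba-a2 had 0.0790, -0.507, -0.290 and -0.664. Hba-a1 had 0.0719, -0.441, -0.275 and -0.557, and Hbb-bt had 0.0678, -0.398, -0.165 and -0.632. Thus 3 of 4 arrays were low and the same 1 array stood just above 0 for each gene. Fitted values were -0.281 ± 0.0700 for Hba-a2 (limma adjusted p = 0.18), -0.234 ± 0.0645 for Hba-a1 (0.25) and -0.179 ± 0.0714 for Hbb-bt (0.422). None of the 6 genes passed, against 0.013% of all entries, 4 in number, with 2827 at an unadjusted p under 0.05. Hba-a2 ranked 2 by size. Without the arrays that hold a day 7 animal, which played a part in choosing the genes, Hba-a2 stood at -0.253 with an adjusted p of 0.359, and with other settings or 1 array left out its adjusted p lay between 0.113 and 0.749. Alas2 was below 0 on 4 of 4 direct arrays, between -0.205 and -0.0634, with a fitted value of -0.0823 ± 0.0654 (adjusted p = 0.737).

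Day 1 and day 14 against hypoxia gave smaller and mixed values. On day 1, Hba-a2 had -0.295, -0.406, -0.0508 and 0.181 on the 4 direct arrays, and the array at 0.181 was also the high one for Hba-a1 (0.291), Hbb-bt (0.293) and Alas2 (0.360). Its fitted value was -0.186 ± 0.0720, against -0.152 ± 0.0664 for Hba-a1 and -0.116 ± 0.0734 for Hbb-bt, each with a limma adjusted p of 1.00. None of the 6 genes passed, nor did any other entry (0%, with 1217 at an unadjusted p under 0.05). On day 14, the 3 direct arrays gave Hba-a2 values of -0.323, 0.0713 and 0.0224, and Hbb-bt values of -0.0879, 0.154 and 0.0797. The fit, which also uses the arrays through other days, gave -0.191 ± 0.0771 for Hba-a2, -0.182 ± 0.0710 for Hba-a1 and -0.137 ± 0.0786 for Hbb-bt (adjusted p = 1.00 for each). Again none of the 6 passed, nor any other entry (0%, with 1234 at an unadjusted p under 0.05). The mean of the globin genes on the direct arrays was -0.0190, against -0.170 in the fit. Direct and fitted values of day 14 thus differ in size, and for Hbb-bt in sign, since its direct mean was 0.0486. The fitted values of day 1 and day 14 draw in part on arrays that hold a day 7 animal, so their tests are not free of these.

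In the steps between days, day 7 stood lowest. From day 3 to day 7 the fitted difference was -0.233 ± 0.0765 for Hbb-bt, -0.150 ± 0.0750 for Hba-a2 and -0.133 ± 0.0691 for Hba-a1. Hbb-bt was below 0 on 4 of 4 direct arrays, with -0.0746, -0.559, -0.194 and -0.150. Day 14 was above day 7 by 0.275 ± 0.0788 for Hbb-bt, 0.240 ± 0.0773 for Hba-a2, 0.184 ± 0.0712 for Hba-a1 and 0.136 ± 0.0721 for Alas2. Hbb-bt and Hba-a2 were above 0 on 4 of 4 direct arrays, and the first of them ranked 1 by size in this comparison. These are descriptions, since they hold day 7. Between day 3 and day 1, and between day 14 and day 1, none of the 6 genes passed and no entry did (0% in each, with 1418 and 856 at an unadjusted p under 0.05). The globin mean for day 3 minus day 1 was -0.0799 in the fit and 0.0149 on the 4 direct arrays, so that its sign is not settled. For day 14 minus day 1 it was -0.0187 in the fit and -0.0719 on the 3 direct arrays.

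Hypoxia itself was not accompanied by a detectable difference in the globin genes. On the 8 direct arrays of hypoxia against normoxia, Hba-a1 ranged from -0.222 to 0.20 with a median of 0.0348, and Hba-a2 from -0.364 to 0.198 with a median of 0.00143. Hbb-bt ranged from -0.329 to 0.148 with a median of 0.0284, and the lowest value of each came from the same array. Fitted values were 0.0266 ± 0.0664, 0.00616 ± 0.0720 and 0.00554 ± 0.0735 (adjusted p of 0.906 to 0.984), and their sign is not settled. When the mean of the alveolar markers described below was added as a covariate they stood at -0.119, -0.146 and -0.142, again without passing. The mean of each alveolar list was itself higher in hypoxia on all 8 direct arrays, so this covariate and the condition are not separate. Alas2 was at -0.0788 ± 0.0672 (adjusted p = 0.621), with 5 of 8 arrays below 0.

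Slc4a1 was the 1 of 6 genes that passed in this comparison, where 3.6% of all entries passed. It was lower in hypoxia than in normoxia on 8 of 8 direct arrays, with values from -0.182 to -0.0186 and a median of -0.0933. The fitted value was -0.0921 ± 0.0224 (limma adjusted p = 0.0146), which is 1.24-fold lower in base 10 and 1.07-fold in base 2. The values lay on one side of 0, and the call was lost without the second array with normoxia in Cy3 (-0.0788, adjusted p = 0.0606) or without the fourth (-0.0794, 0.0582). It was also lost on the 8 direct arrays fitted alone (-0.0921, adjusted p = 0.105) and with the alveolar covariate (-0.0660, 0.556), which itself differed between hypoxia and normoxia. In the other settings and with any other array left out the adjusted p reached at most 0.0420. Epb42 stood at -0.00102 ± 0.0161. After the return to normal air Slc4a1 lay within 0.0178 of hypoxia on each day. Against normoxia, through hypoxia, it stood at -0.100 ± 0.0317 on day 1, -0.102 ± 0.0313 on day 3, -0.0743 ± 0.0314 on day 7 and -0.0869 ± 0.0328 on day 14, values that share the normoxia arrays.

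**Figure D2:**
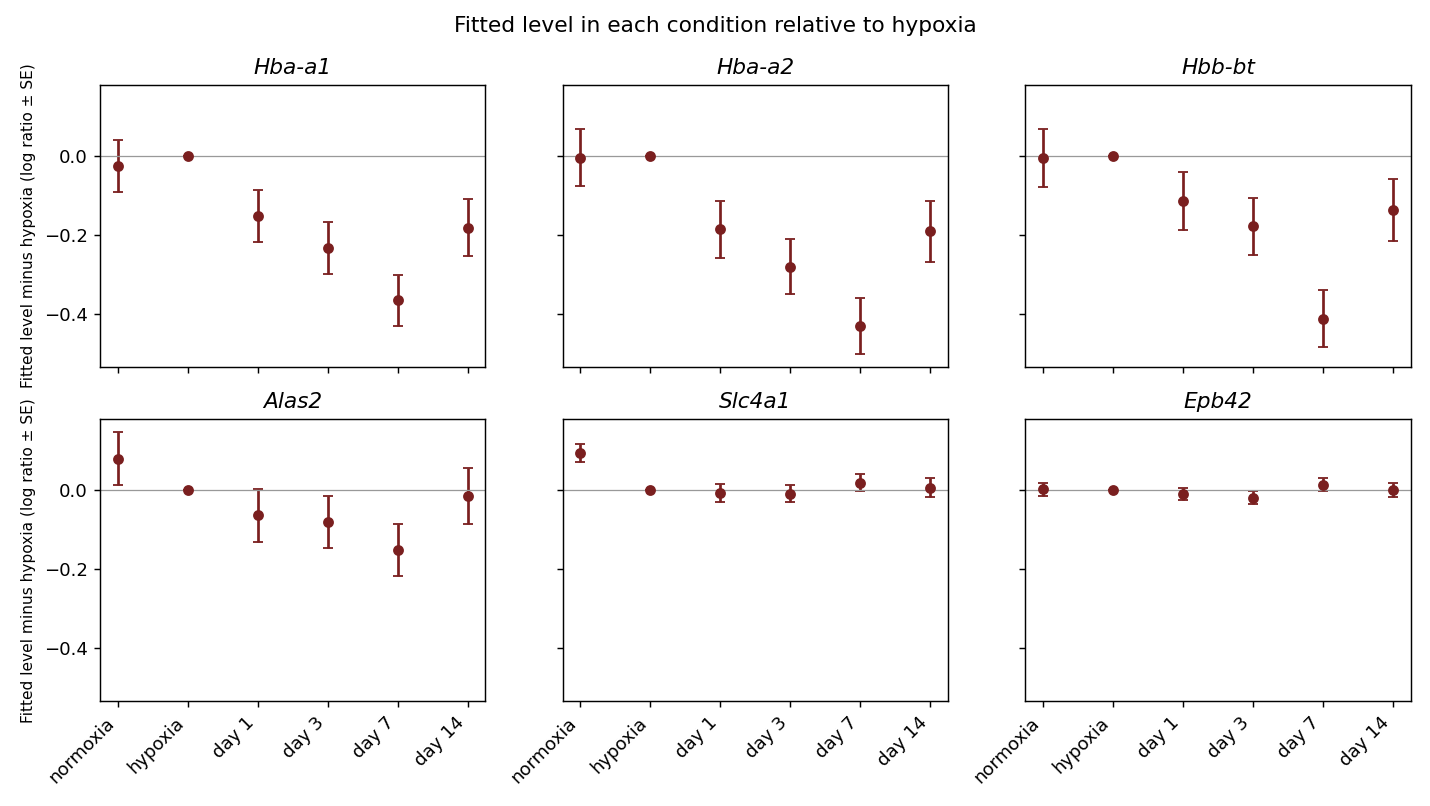
Fitted level of each gene in the 6 conditions relative to hypoxia, which is 0 by definition (vertical axis, log ratio, base not stated), with bars of 1 SE. The globin genes are lowest on day 7, at -0.366 to -0.431, Slc4a1 is highest in normoxia at 0.0921, and Epb42 stays between -0.0199 and 0.0128.

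The order of levels was the same for the 3 globin genes: day 7, day 3, day 14, day 1, normoxia and hypoxia, from low to high. Steps between neighbours were larger than their SE between day 7 and day 3, at 0.133 to 0.233, and between day 1 and normoxia, at 0.110 ± 0.104 for Hbb-bt, 0.126 ± 0.0939 for Hba-a1 and 0.180 ± 0.102 for Hba-a2. From day 14 to day 1 they were within it, at 0.00519 to 0.0298, and from normoxia to hypoxia too. From day 3 to day 14 only Hba-a2 (0.0896 ± 0.0885) stood at its SE. Alas2 had day 7 lowest as well, and normoxia highest, and its largest step was that from hypoxia to normoxia, 0.0788 ± 0.0672. In Slc4a1 the step from day 7 to normoxia was 0.0743 ± 0.0314 and the other steps were at most 0.0126. Conditions share arrays, so these steps are not independent of each other. The globin genes also correlate closely and were chosen with their low day 7 values known, so their shared order is a description.

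Among arrays of the same comparison the globin genes spread widely. The residual SD was 0.195 for Hba-a1, 0.212 for Hba-a2 and 0.217 for Hbb-bt, at ranks 784, 448 and 392 of 30653 entries, whose median was 0.0821. Alas2 had 0.198, while Slc4a1 had 0.0629 and Epb42 0.0428. Conditions left 46.4% to 50.7% of the squared deviations of the globin genes within conditions, against 81.4% for Alas2 and 87.4% for Epb42. The median over all entries was 85.3%. For Slc4a1 the share was 63.1%. These shares include the day 7 arrays on which the genes were chosen, so the low share of the globin genes is a description only. None of the 6 genes had a dye effect past the threshold.

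The globin genes moved together from array to array. Over the 38 arrays, with the dye effect removed, Pearson's r was 0.970 between Hba-a1 and Hba-a2, 0.954 between Hba-a1 and Hbb-bt and 0.956 between Hba-a2 and Hbb-bt. Within conditions r was 0.944 to 0.945. The alpha globins lie on chromosome 11 and the beta globin on chromosome 7. Alas2, on chromosome X, correlated with the globins at r of 0.580 to 0.599 and at 0.503 to 0.539 within conditions. Slc4a1, on chromosome 11, stood at -0.142 to -0.120 with them, and Epb42, on chromosome 2, at 0.00465 to 0.0821. The 2 features of Epb42 had an r of -0.149 with each other. Points share arrays, animals and any normalization, and no test is given.

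**Figure D3:**
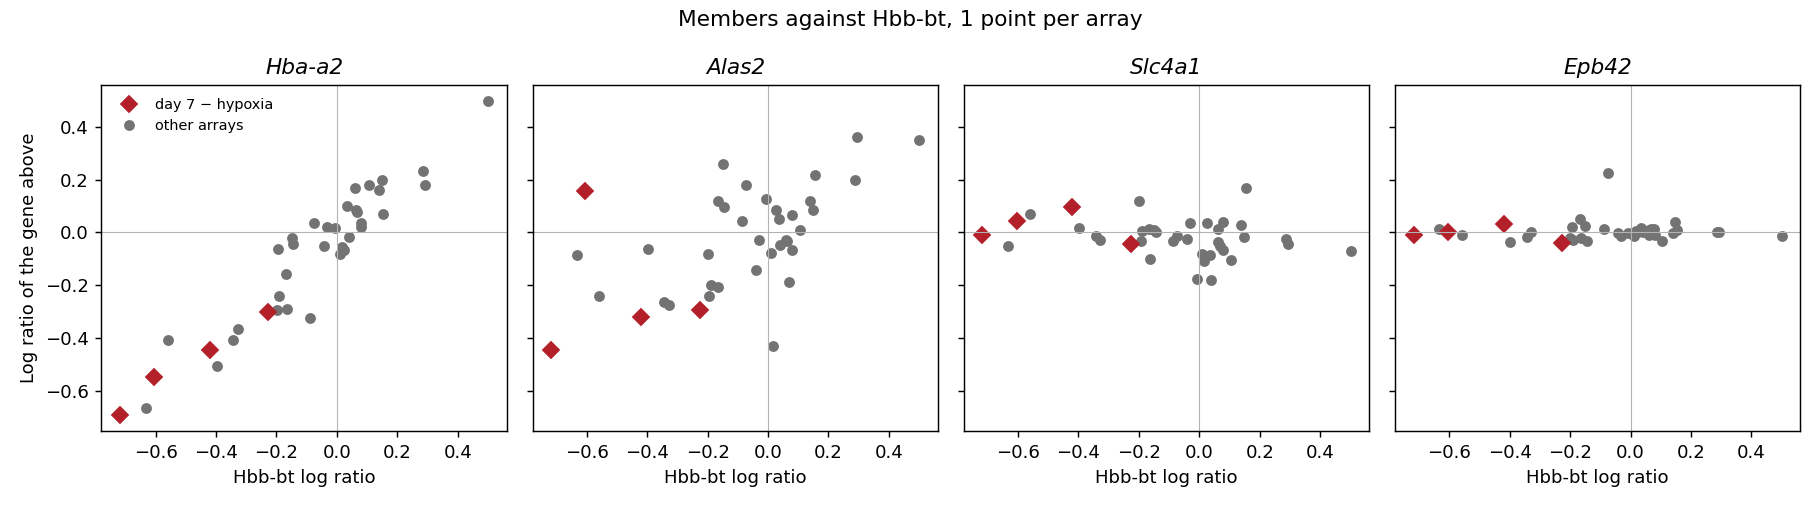
Log ratios of Hba-a2, Alas2, Slc4a1 and Epb42 (vertical axis) against Hbb-bt (horizontal axis, both with base not stated), 1 point for each of 38 arrays, with the 4 arrays of day 7 against hypoxia as red diamonds. Hba-a2 lies close to a line (r = 0.956), Alas2 scatters around one (r = 0.585), and Slc4a1 (r = -0.142) and Epb42 (r = 0.00465) stay flat. The r values were computed with the signs as deposited, while the plotted points have them turned.

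Few other genes followed the globins. Of 19084 other named genes, 1 had an r above 0.7 with the mean of the 3 globin genes over the 38 arrays, and of 11566 unnamed features none did. This was Sparc, a collagen-binding matrix protein, with r = 0.714 and Spearman's rho = 0.631. It stood at -0.127 on day 7, -0.105 on day 3 and -0.113 on day 14 against hypoxia, and the difference of day 14 minus day 7 was 0.0137. Next were Cyb5b (0.593), an outer mitochondrial membrane cytochrome, Dxo (0.591), the inhibitor of differentiation Id3 (0.588), the incretin receptor Glp1r (0.573), filamin Flna (0.565), Gmppa (0.557) and the vomeronasal receptor Vmn1r44 (0.553). Of these, Glp1r had the largest difference on day 7 (-0.188). Within conditions the r of Id3 (0.578) and Dxo (0.561) was higher than that of Sparc. For Alas2 the nearest genes were Tnfaip8l1 (0.590), Tmem243 (0.579), the junction protein Jam2 (0.566) and smooth muscle myosin Myh11 (0.566). Slc4a1 was most like the olfactory receptor gene Olfr223 (r = 0.837, rho = 0.747), followed by Tbc1d25 (0.693), Sly (0.691) and BC051665 (0.686). Epb42 was most like Pax1 (r = 0.822, rho = 0.272), Olfr1325 (0.715, 0.189), Olfr1193 (0.695, 0.156) and Olfr1086 (0.674, 0.140). For Epb42 each rho was thus far below r. The genes most like Slc4a1 and Epb42 were looked up after the values were seen, and whether their messages were detected was not tested. Olfr223 stood at -0.127 in hypoxia against normoxia.

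Other globin genes stood slightly above hypoxia on day 7. Of 11 listed, 5 were measured: the embryonic Hba-x, Hbb-y and Hbb-bh1 and the theta genes Hbq1a and Hbq1b. On day 7 against hypoxia they stood at 0.0220 ± 0.0204, 0.00463 ± 0.0207, 0.0513 ± 0.0425, 0.0316 ± 0.0231 and 0.0134 ± 0.0206. Their median was 0.0220, against 0.00145 over all entries. In hypoxia against normoxia they lay between -0.0676 and -0.0126, and none passed.

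Of 12 measured genes of the red cell membrane and its skeleton, 2 passed lower in hypoxia than in normoxia and none higher. These were beta spectrin Sptb (-0.0803 ± 0.0199, limma adjusted p = 0.0163) and beta adducin Add2 (-0.0667 ± 0.0157, 0.0117), beside a list median of -0.0354 and -0.00397 over all entries. Over all entries 2.25% passed lower and 1.35% higher. On day 7 against hypoxia 7 of the 12 stood lower, with a median of -0.0156.

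Other enzymes of haem synthesis and the erythroid regulators gave no call. Of 11 measured haem genes 6 stood lower on day 7, with a median of -0.00171, and the last enzyme of the pathway, ferrochelatase Fech, had 0.0410 ± 0.0398. Of 12 measured erythroid regulators 8 stood lower, with a median of -0.00324. Lmo2, an adaptor of the erythroid factor complex that endothelium also makes, had -0.152 ± 0.0544, the lowest of that list, and Bcl11a, a repressor of fetal globin genes, had 0.0432 ± 0.0193. None of either list passed in a tested comparison.

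Transcripts that are abundant in reticulocytes stood lower on day 7 in 10 of 14 measured genes, with a median of -0.0168. The other 4 stood higher, up to 0.0725. Bpgm, which makes the bisphosphoglycerate that tunes oxygen release from haemoglobin, had -0.114 ± 0.0307, and Fbxo7, a subunit of a ubiquitin ligase, -0.0859 ± 0.0321. These 2 genes were named after their values were seen. In hypoxia against normoxia, carbonic anhydrase Car2 (0.170 ± 0.0490, adjusted p = 0.0435) and the nuclear export factor Xpo7 (0.137 ± 0.0371, 0.0295) rose, 2 of the 14, and none fell past the threshold, beside 1.35% of all entries higher and 2.25% lower. Many genes of this list are made in other cells as well. Of 16 genes of haem breakdown and iron handling, 1 passed in hypoxia, the haemoglobin scavenger receptor of macrophages Cd163, which fell by 0.248 ± 0.0445 (adjusted p = 0.00153), beside 3.6% of all entries, so that 1 call is not read as a result about the list. On day 7 against hypoxia 10 of the 16 stood lower, with a median of -0.0220.

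Markers of other blood cells stood near 0 on day 7. Of 10 platelet genes 8 stood lower, with a median of -0.0111, of 13 neutrophil genes 5, with a median of 0.00635, and of 12 lymphocyte genes 6, with a median of 0.00899. The neutrophil gene Lcn2 was at -0.0965 ± 0.0453 and the T cell gene Cd3g at 0.0801 ± 0.0428. In hypoxia against normoxia 1 gene of these 3 lists passed, the platelet collagen receptor Gp6 (-0.200 ± 0.0492, adjusted p = 0.0159), where 3.6% of all entries passed, so that the count is near the background. The correlation of the list mean with the globin mean over the 38 arrays was 0.167 for platelets (rho = 0.277) and -0.0951 for neutrophils (rho = 0.0224). For lymphocytes r was -0.358 with rho = -0.167, and it moved to -0.156 without the 2 arrays farthest from the median, so that it rests largely on them. The mean of the other globins had r = -0.401 (rho = -0.328), and that of the reticulocyte transcripts r = 0.301 (rho = 0.202).

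Markers of the air spaces stood lower together with the globin genes on day 7. Of 13 alveolar type 1 genes, 13 stood lower than in hypoxia, with a median of -0.0592, and array means of -0.0103, -0.105, -0.00530 and -0.121 on the 4 direct arrays, in the order used for the globins. Of 13 alveolar type 2 genes, 13 stood lower, with a median of -0.0361 and array means between -0.0845 and -0.0303. Over the 38 arrays the globin mean correlated with the type 1 mean at r = 0.479 (rho = 0.449) and with the type 2 mean at r = 0.314 (rho = 0.374). Within conditions r was 0.337 for type 1 and 0.206 for type 2. Without the 2 arrays whose globin mean lay farthest from its median, r was 0.370 and 0.328. In hypoxia against normoxia the same lists stood higher in 13 of 13 genes each, with 5 type 1 genes (such as Clic5 at 0.173) and 6 type 2 genes (such as surfactant protein Sftpb at 0.215) past the threshold, beside 1.35% of all entries. No globin gene passed there. With the score of both lists as a covariate the globin mean on day 7 was -0.321, against -0.403 without it. The score itself differed between day 7 and hypoxia, so the 2 are not separate.

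Vessel wall markers were also measured on these arrays. Of 12 endothelial genes 10 stood lower on day 7, with a median of -0.0195, and of 10 smooth muscle genes 8, with a median of -0.0319. In hypoxia against normoxia, the VEGF receptor Kdr rose (0.130 ± 0.0327, adjusted p = 0.0181), von Willebrand factor Vwf fell (-0.113 ± 0.0205, 0.00164), and 5 of the 10 smooth muscle genes fell, among them calponin Cnn1 (-0.190 ± 0.0349, 0.00181) and smooth muscle actin Acta2 (-0.116 ± 0.0237, 0.00433), beside 2.25% of all entries lower and 1.35% higher. No gene of any of the 13 lists passed in another tested comparison.

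**Figure D4:**
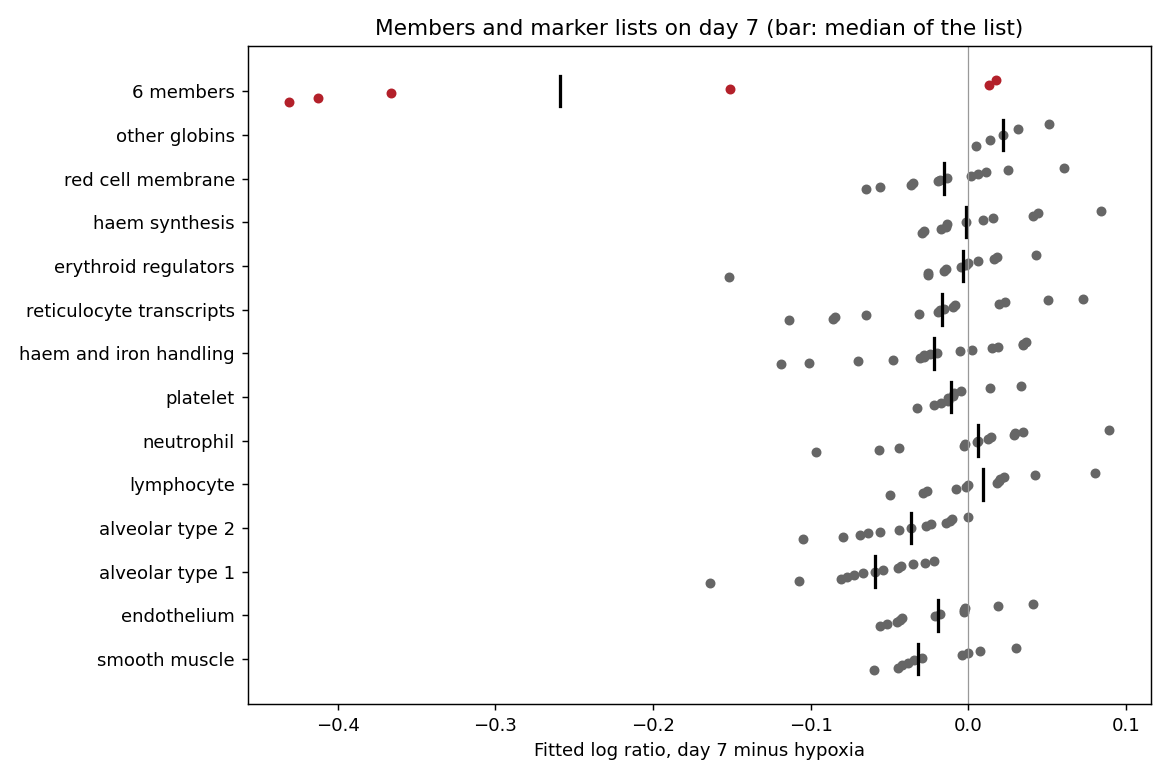
Fitted log ratios on day 7 against hypoxia (horizontal axis, base not stated) for the 6 genes in red and for the genes of 13 marker lists in grey, 1 point per gene, with a black bar at the median. The globin genes lie at -0.366 to -0.431, while the lowest gene of any list, Pdpn of the alveolar type 1 cells, lies at -0.164.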

How the data were processed

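Two-colour arrays held RNA from dissected lung vessels, 1 animal per channel. What the authors deposited is the log ratio of both channels, taken here as log10. The submitters' processing notes name limma, and background correction, normalization, base and direction are not given there or in the labels. Features of 1 gene were averaged, 2 features lacking a value were dropped, and 30653 entries remained. Groups came from the labels of each channel.

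A linear model was fitted to the log ratios of 38 arrays with limma 3.58.1 (lmFit, eBayes) in R 4.3.3, with a dye intercept and 5 condition terms against hypoxia. This left 32 residual degrees of freedom. Tests were two-sided, with Benjamini-Hochberg adjustment over all entries at 0.05. Figures used matplotlib 3.10.9. Steps were tested on simulated data. The number of arrays limits the precision.

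The genes and lists were chosen with earlier results of these data known. The genes named are the 6, the 8 most like the globin mean and the 4 most like Alas2, and of each list the genes past the threshold, or otherwise up to 3 with the smallest p on day 7, and all measured globins. Bpgm, Fbxo7, Pdpn and the genes most like Slc4a1 and Epb42 fall outside this rule and were named after their values were seen. Alternatives changed the dye term, scaling, features, filter, fit or arrays.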

Additional observations from a re-analysis of the deposited data

Results flagged for a closer look

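In 3 of 42 groups of arrays tested, the highest or lowest array stood apart by Dixon's criterion, which chance alone meets in about 1 of 20 groups. For Hba-a1 on day 7 against day 3, the second array with day 3 in Cy3 stood at -0.416, with the other 3 arrays between -0.0441 and 0.0198. For Hbb-bt in hypoxia against normoxia, the third array with normoxia in Cy3 stood at -0.329, with the other 7 between -0.00755 and 0.148. Hba-a1 (-0.222), Hba-a2 (-0.364) and Alas2 (-0.273) were low on it too. For Epb42 on day 7 against day 3, the first array with day 3 in Cy3 stood at 0.227. The other 3 arrays lay between -0.0115 and 0.0263. The value of 0.227 is a mean of the Epb42 features, which stood at 0.460 and -0.00621 on that array. The deviation was thus not shared between the features. The globin mean on that array was -0.00623.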

How the results depend on the processing

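The globin mean on day 7 against hypoxia was -0.403. It lay between -0.494 (direct arrays alone) and -0.321 (alveolar score) in the other settings, and between -0.422 and -0.364 with any 1 array left out. The count of genes past the threshold in hypoxia against normoxia, 1 (Slc4a1), was 0 with 3 settings: direct arrays alone, the alveolar score, and the filter that leaves out the 50% of entries with the lowest SD, which drops Slc4a1 itself. It was 0 to 1 with 1 array left out. With the replicate block it was 1 (-0.0921, adjusted p = 0.0186). Same-numbered arrays of different groups did not deviate together on average (mean r -0.0183 over 248 pairs, against -0.0231 for other numbers). Their lowest r was -0.378. The signs were not turned by dye orientation here, so that this mean cannot show whether a few arrays shared animals. Only 15 of 38 arrays correlated best with their own number. In the other 5 tested comparisons the count was 0 in each setting. No tested value that passed changed sign. Leaving out the pair of arrays that had day 1 in Cy5 and day 3 in Cy3, chosen after seeing the data, changed no count. Spots' brightness was not used here, so dim features were not filtered.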
